A study of Mus musculus with 7 samples.

Results

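Nasal tissue of control mice was read from the Cy3 channel of 7 two-colour Agilent mouse arrays, 4 hybridised with RNA from diesel exhaust particle (DEP) exposure of 4 weeks and 3 with RNA from exposure of 8 weeks in the other channel. These 7 control channels, chosen by their labels and not by any measured value, are 7 of the 14 channels of the series. The mice were female BALB/c, an inbred laboratory strain, and the labels give an age of 6 weeks for every sample. The study's methods give 6 weeks as the age of the mice used, before treatment, and no age at collection is given. Control RNA came from mice given saline through the same nebulizer, per the study's methods, and carried Cy3, whereas RNA of mice exposed to 100 µg/m3 DEP carried Cy5 on the same array. The labels give the control RNA no duration of its own, so each control channel takes the time of its array and the channels are called here the 4-week and the 8-week controls. Each set of controls lay on 1 slide of its own, so that the slide, the hybridisation and the time of collection cannot be told apart. Any difference in mouse age at collection or in length of saline treatment would coincide with the set as well. The labels call the arrays biological replicates, but the sources used here do not say whether the control RNA of an array was from 1 mouse or a pool, and p-values measure only the spread between arrays. The tissue, as the study's methods describe it, was the nasal septum and turbinates cut out between the incisive papilla and the second molar.

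The nasal cavity is lined by olfactory epithelium, in which olfactory sensory neurons, identified by the olfactory marker protein, lie among sustentacular support cells rich in enzymes that break down odorants and inhaled chemicals, and by respiratory epithelium of ciliated and mucus-secreting cells. Beneath the epithelium, Bowman's glands and the lateral and septal nasal glands secrete odorant-binding lipocalins, mucins and antimicrobial proteins, many of which are also made by the salivary and lacrimal glands and some of which carry scent signals between mice. Most tissues also run a circadian clock, in which the activators Bmal1 (Arntl) and Clock drive the Per, Cry and Rev-erb (Nr1d1, Nr1d2) genes that repress them, with output through factors such as Dbp, so that the levels of these genes depend on the hour at which a tissue is taken.

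Every value below is a log2 signal of the control channel after subtraction of the local background and quantile normalization over the 7 arrays, and a difference is the mean of the 8-week controls minus the mean of the 4-week controls. A gene was read from its brightest tested probe. Defining markers of olfactory neurons (Omp, Gnal, Cnga2), support cells (Cyp2g1, Ermn), ciliated cells (Dnah5, Tekt1) and secretory cells (Bpifa1, Muc5b) were well above background on all 7 arrays. Not every marker was: Scgb1a1, also of secretory cells, was above background on 1 of the 4-week arrays. The numbers of probes well above background were 16985 to 22631 on the 4-week arrays and 20100 to 26927 on the 8-week arrays, no control-channel spot was saturated, and 158 to 268 spots per array were flagged as non-uniform on the 4-week slide against 5 to 56 on the 8-week slide. Signals correlated across probes with r = 0.948 to 0.968 among the 4-week controls, 0.986 to 0.994 among the 8-week controls and 0.92 to 0.952 between the sets. On the 107 bright probes that are spotted repeatedly, the median absolute difference was 0.063 to 0.150 between repeated spots of a single array, 0.096 to 0.164 between arrays of 1 set and 0.238 to 0.307 between arrays of different sets. All 10 E1A spike-in RNAs, which are added to the labelling reaction and are no part of the tissue, read higher on all 8-week than on all 4-week arrays, by 0.572 to 0.888 after scaling, so that differences of this size occurred in RNA that did not come from the mice. The part of slide, labelling or dye in any single gene was not tested.

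Many of the brightest probes of the control tissue were those of secreted proteins, beside probes of genes of other kinds. Which glands or cells they came from was not tested. Among the 25 genes with the highest mean signal were the major urinary protein genes Mup4, Mup19 and Mup20, which encode lipocalins that bind pheromones, the odorant-binding lipocalins Obp1a, Obp2a, 5430402E10Rik (synonym OBP2 in RefSeq) and Lcn11, and the BPI-fold family members Bpifa1, Bpifa6 and Bpifb9b, to which antibacterial proteins of the airway lining belong. The gel-forming mucin Muc5b, the secretoglobin Scgb1c1 and the whey acidic protein family member Wfdc18 were in the same group. So were Omp, the marker protein of mature olfactory neurons, and Cbr2, a carbonyl reductase. Tpt1, a translation-associated gene used by all cells, read 16.00 to 16.16 on the 4-week and 16.02 to 16.04 on the 8-week arrays (difference -0.03, adjusted p = 0.78). Some names in this group rested on 1 of several probes: the other tested probe of Zfp628 had a mean of 7.77 against 16.74 for the brightest, and for Kctd14 (8.55 and 5.69 against 16.20) and Glrx2 (9.26 and 5.29 against 16.13) the probes of 1 gene were as far apart, so the transcript behind these 3 signals is uncertain. The probes of Milr1 were apart as well (13.79 and 8.85 against 16.14). Elk1 and Exosc2 had 1 tested probe each, so no second probe could be compared. The Mup genes, and Obp1a beside Gm14743, are members of families of near-identical copies, and which copy a probe measured is likewise uncertain.

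**Figure D1:**
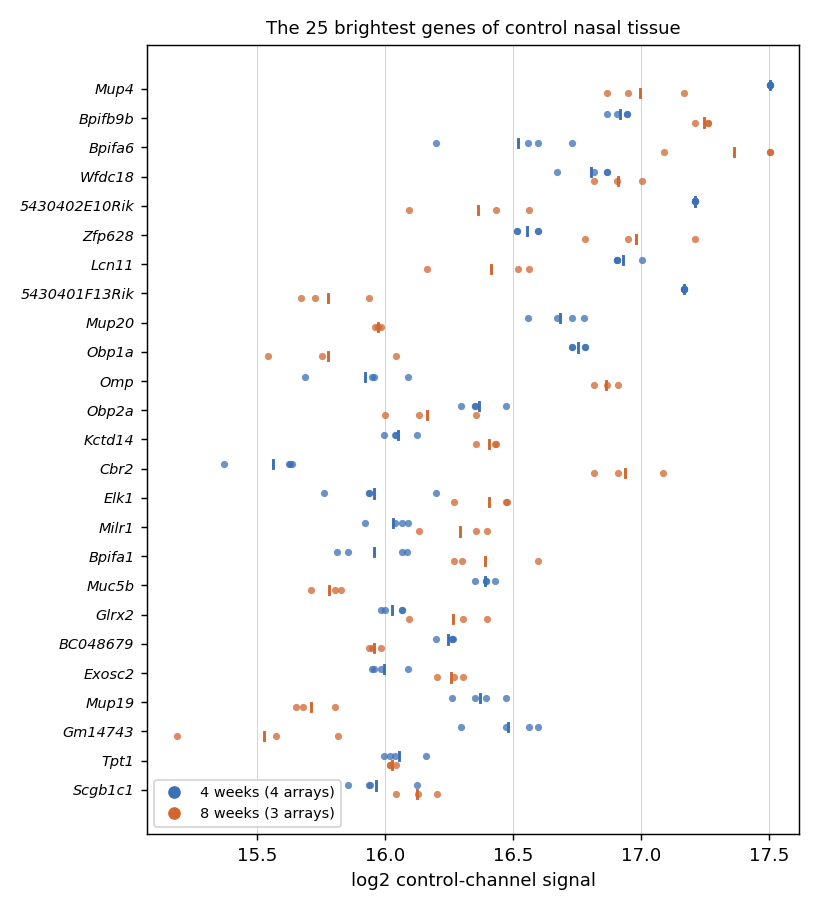
The 25 genes with the brightest probes in control nasal tissue, each dot 1 array, on a log2 axis of control-channel signal, with blue for the 4-week and orange for the 8-week controls and a bar at each mean. The lipocalins other than Obp2a, whose sets overlap, lie lower at 8 weeks and Omp, Cbr2 and Bpifa6 higher, while Tpt1 lies at about 16 in both sets.

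Within this top group the lipocalin genes other than Obp2a were lower at 8 weeks, while Omp and Cbr2 were higher. Mup4 was the brightest probe of all 4 of the 4-week controls, at 17.50 on each, and read 17.17, 16.87 and 16.95 at 8 weeks (difference -0.51, SE 0.08, adjusted p = 0.0043). Quantile normalization gives the same value to the same rank on every array, so the spread at the very top is narrower than that of the raw signal. Obp1a read 16.73, 16.73, 16.78 and 16.78 at 4 weeks and 16.04, 15.75 and 15.54 at 8 weeks (-0.98, SE 0.12, adjusted p = 0.0014). 5430401F13Rik, a gene on chromosome 6, was at 17.17 on each 4-week array and at 15.94, 15.67 and 15.73 at 8 weeks (-1.39, adjusted p = 7.2e-05). In none of these 3 genes did the sets overlap. Mup20 (-0.71), Mup19 (-0.66), 5430402E10Rik (-0.85), Gm14743 (-0.96), Lcn11 (-0.52), Muc5b (-0.61) and BC048679 (-0.29) were lower at 8 weeks as well, and Obp2a (-0.21, adjusted p = 0.16) did not pass.

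Bpifa6 took the top rank in place of Mup4 on 2 of the 8-week arrays, with 16.56, 16.60, 16.73 and 16.20 at 4 weeks and 17.50, 17.50 and 17.09 at 8 weeks (0.84, adjusted p = 0.0089). Its lowest 8-week value lay above its highest 4-week value. Bpifb9b (0.33, adjusted p = 0.0047), Bpifa1 (0.43, adjusted p = 0.031), Kctd14, Elk1, Exosc2 and Zfp628 were higher by 0.26 to 0.45, and Wfdc18, Glrx2, Scgb1c1 and Tpt1 did not pass. Neither did the brightest probe of Milr1 (0.27, adjusted p = 0.059), although its other probes were higher by 0.71 and 1.02. For these bright probes the calls depended on the scaling: with arrays scaled to their 75th percentile in place of quantile normalization, Bpifb9b differed by -0.032 and was not called.

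Across all genes the sets differed widely, and more genes were higher than lower at 8 weeks. Of 14499 named genes tested, 3091 (21.3% of those tested) were higher and 1605 (11.1%) lower at 8 weeks at an adjusted p of at most 0.05. Without replicate 1 of the 8-week controls the number lower fell to 984. With at least a 2-fold difference as well, 779 (5.37%) were higher and 248 (1.71%) lower, and at an unadjusted p of at most 0.01 with 2-fold the counts were 767 and 239. The 2-fold counts were 185 and 116, with 61.5% higher in place of 75.9%, when the background was corrected by normexp. The median difference over all genes was 0.049, with quartiles of -0.192 and 0.325. On 4116 genes every 8-week array lay above every 4-week array, and on 2442 every one lay below. Another 3988 transcripts without a current symbol were tested, of which 474 were higher and 50 lower by at least 2-fold. The counts of the gene lists below stand beside the shares of all genes, 21.3% higher and 11.1% lower at the adjusted p.

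**Figure D2:**
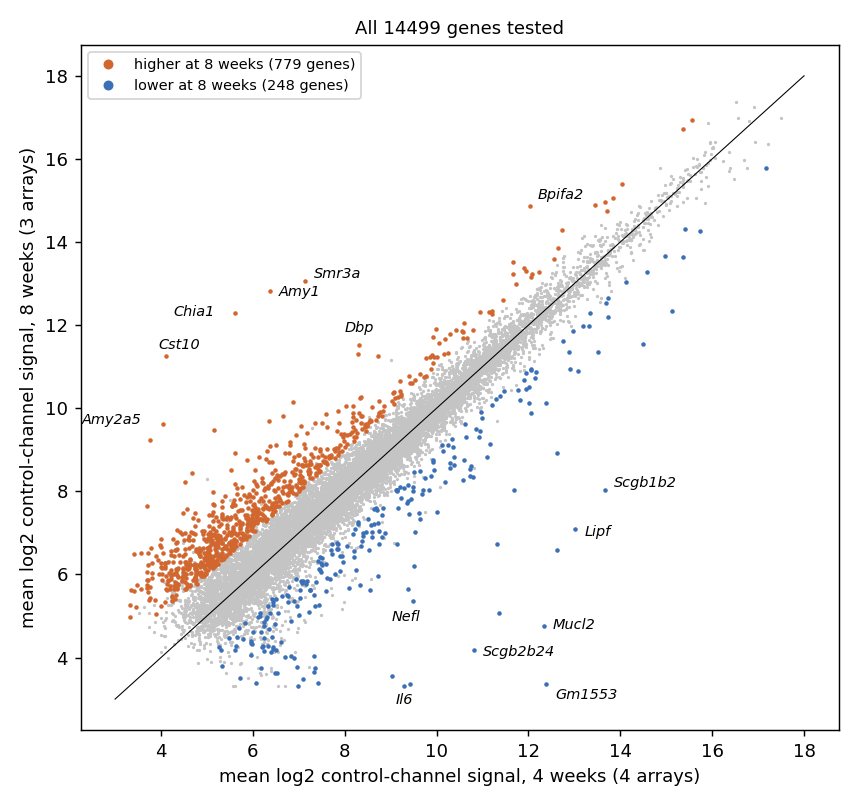
Mean log2 control-channel signal of the 14499 genes in the 4-week (x axis) and 8-week controls (y axis), with the 779 genes higher and the 248 lower at 8 weeks by at least 2-fold coloured. The coloured points above the diagonal crowd at the dim end, and the few points farthest from it are secreted proteins such as Mucl2, Gm1553, Amy1 and Chia1.

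At 2-fold, the excess of higher genes lay among dim probes. With genes split by mean signal into 4 groups of equal size, in the dimmest group 418 (11.5%) were higher and 73 (2.01%) lower by at least 2-fold, whereas in the brightest group 60 (1.66%) were higher and 64 (1.77%) lower. At the adjusted p alone, 20% to 23.1% of genes were higher in each of the 4 groups, and the share lower went from 4.61% in the dimmest to 16.2% in the brightest. The 8-week arrays also had more probes above background, and 194 genes were above background on all 3 of the 8-week and on none of the 4-week arrays. The other way round, 12 genes were above background on all 4 of the 4-week arrays and on none of the 8-week arrays. With at least 3 of the 4-week arrays required in place of all 4, these were 26 genes. Over the 10395 genes above background on all 7 arrays, 2106 (20.3%) were higher and 1444 (13.9%) lower, with a median difference of 0.025.

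The largest differences of single genes lay in secreted proteins of glands, and they ran both ways. Amy1, the amylase of saliva, read 6.15, 6.46, 6.23 and 6.65 in the 4-week controls and 12.78, 12.79 and 12.91 in the 8-week controls (difference 6.45, SE 0.13, adjusted p = 1.5e-06). Chia1, an acidic chitinase secreted in stomach, airway and salivary glands, read 5.23, 5.78, 5.59 and 5.86 against 12.32, 12.31 and 12.27 (adjusted p = 2.6e-06). Cst10, a cystatin-family gene, read 3.48, 4.38, 3.32 and 5.23 against 11.31, 11.24 and 11.20 (7.15, SE 0.46, adjusted p = 1.2e-04). Cst10 and Chia1 were above background on 1 array of 4 at 4 weeks, Amy1 on all 4, and in none of the 3 genes did the sets overlap.

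Smr3a, a submaxillary gland androgen-regulated protein, read 7.06, 7.04, 7.02 and 7.41 against 13.11, 13.09 and 12.97 (5.92, adjusted p = 1.3e-06). Bpifa2, a parotid secretory protein of the same BPI-fold family as Bpifa6, read 12.08, 12.04, 11.88 and 12.15 against 14.85, 15.05 and 14.72 (2.83, SE 0.10, adjusted p = 1.6e-05). Bpifa2 was bright on all 7 arrays, so its difference does not rest on values near background. Prb1, a proline-rich salivary protein, was higher by 4.31 and Car6, the secreted carbonic anhydrase of saliva, by 0.56. Amy2a5, the pancreatic amylase whose sequence is close to that of Amy1, was above background only at 8 weeks and was at least 24.3-fold higher there. Gm4736 (at least 22.1-fold), Sult6b1 (at least 9.42-fold), Msmb (at least 6.44-fold) and Fbxo39 (at least 6.15-fold) were also above background only at 8 weeks, but a second probe of Gm4736 differed by 0.45 and did not pass. Each such bound sets the mean of the bright set against the mean, over the arrays of the dim set, of the probe's own value or the dimmest signal called well above background on that array, whichever was higher.

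Mucl2, a mucin-like protein of salivary glands, ran the other way, with 12.32, 12.21, 12.31 and 12.48 at 4 weeks and 4.40, 4.89 and 5.01 at 8 weeks (-7.56, SE 0.16, adjusted p = 1.5e-06). Gm1553, a gene on chromosome 10 with the RefSeq synonym Lcrn, read 12.42, 12.28, 12.38 and 12.48 against 3.32, 3.32 and 3.43, where 3.32 is the floor set for signals at or under background, and was at least 375-fold lower at 8 weeks (adjusted p = 5.8e-08). Lipf, the gastric lipase, read 13.06, 13.06, 12.88 and 13.08 against 6.98, 7.16 and 7.14 (-5.92, adjusted p = 2.7e-07). All 3 genes were bright on every 4-week array. At 8 weeks Gm1553 was above background on no array and Mucl2 on 1 of 3, while Lipf was dim but above background on all 3.

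Of the 14 tested genes of a salivary and lacrimal gland list, 5 were higher and 8 lower, where 21.3% of all genes were higher and 11.1% lower. The list median was -0.75 beside 0.049 over all genes. The lower ones were Mucl2, the exocrine gland peptide Esp6 (-3.31), the lectin-like Lman1l (-1.48), the demilune cell and parotid proteins Dcpp3 (-1.46), Dcpp2 (-1.32) and Dcpp1 (-0.95), the prolactin-inducible protein Pip (-0.93) and lactoperoxidase, Lpo (-0.56). Esp6 read 9.53, 9.48, 9.43 and 9.58 against 6.07, 6.24 and 6.27. The water channel Aqp5, present in all these glands, differed by 0.02 and did not pass. The list thus held genes that differed by more than 5 log2 units in either direction beside a gland gene that hardly differed. The 3 Dcpp genes are near copies of each other and are not independent.

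The androgen-binding secretoglobins, small proteins of saliva, tears and nasal secretions made from paired Scgb1b and Scgb2b subunits, were lower at 8 weeks. Of 13 tested members 11 were lower and 0 higher, with a median of -3.70, and 10 of the 11 were lower by at least 2-fold, where 11.1% of all genes were lower and 1.71% by at least 2-fold. As 2 members were above background at 4 weeks only, these were tested only through the set in which they were bright. Among the 9 members above background on all 7 arrays, 7 (77.8%) were lower and 0 higher, with a median of -2.153. Of all genes above background on all 7 arrays, 13.9% were lower. Scgb1b2 read 13.74, 13.57, 13.61 and 13.71 at 4 weeks and 7.98, 8.11 and 8.00 at 8 weeks (-5.63, SE 0.07, adjusted p = 2.1e-07). Scgb2b24 (at least 91.5-fold lower), Scgb1b24 (at least 44-fold lower), Scgb1b19 (-6.30), Scgb1b7 (-6.03), Scgb2b7 (-4.57) and Scgb1b20 (-3.70) were lower by more than 3 log2 units, and Scgb2b2 (-2.95), Scgb2b20 (-2.15), Scgb1b3 (-1.96) and Scgb2b27 (-0.30) by less.

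Scgb1b27, the alpha subunit long known from mouse saliva, read 8.88, 8.78, 8.85 and 8.91 against 8.90, 8.97 and 8.86 (0.06, adjusted p = 0.54), so that its sets overlapped. Scgb1b30 differed by 0.36 and did not pass. The members of this family are near-identical in sequence and their probes may share targets, so the 13 genes are not 13 separate measurements. Among other secreted genes, the respiratory secretory list had 5 of 16 tested genes higher and 5 lower, where 21.3% of all genes were higher and 11.1% lower. Bpifb1 (-2.17), the trefoil factor Tff2 (-1.09), the mucin-folding factor Agr2 (-0.66), Muc5b (-0.61) and the goblet cell factor Spdef (-0.60) were lower, and the gel-forming mucin Muc5ac (0.57) was among those higher. Scgb1a1, the club cell secretoglobin, was above background on 1 of the 4-week arrays and differed by 0.19, which did not pass. The list of Bowman's gland and nasal lipocalin genes had 3 of 10 tested genes higher, among them Bpifb6 (0.87) and Bpifb4 (0.52), and 3 lower, with Lcn4 at -0.42. Fewer cells of a type and less RNA per cell cannot be told apart in tissue RNA, here or in any list below.

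**Figure D3:**
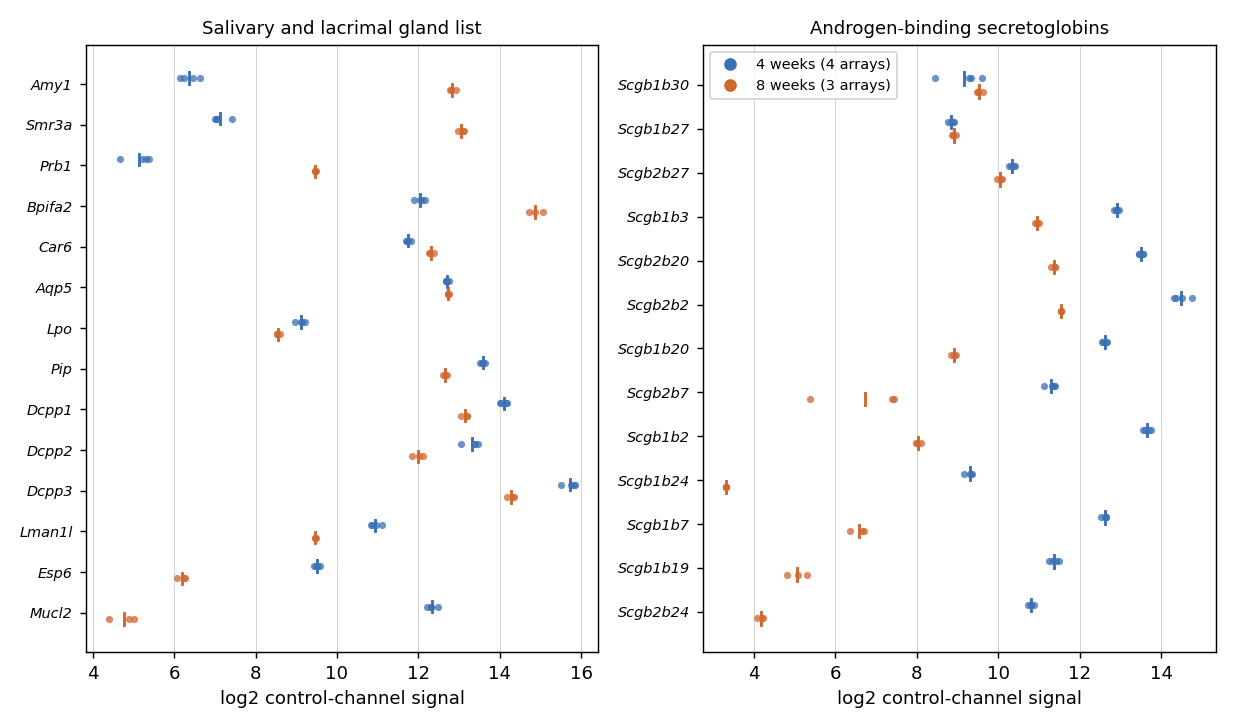
Log2 control-channel signal of the 14 tested salivary and lacrimal gland genes (left) and the 13 tested androgen-binding secretoglobins (right), each dot 1 array and each bar a mean, blue for the 4-week and orange for the 8-week controls. Amy1 and Mucl2 lie farthest apart in opposite directions, Aqp5 and Scgb1b27 read alike in both sets, and 11 of the 13 secretoglobins lie lower at 8 weeks.

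The olfactory epithelium read brighter in the 8-week controls. Of 18 genes of mature olfactory neurons, all tested and above background on all 7 arrays, 16 (88.9%) were higher and 0 lower, with a median of 0.53, against 20.3% of all genes above background on all 7 arrays. Omp read 16.09, 15.95, 15.69 and 15.96 at 4 weeks and 16.87, 16.91 and 16.82 at 8 weeks (0.94, SE 0.10, adjusted p = 8.9e-04). Gnal, the G protein subunit that couples olfactory receptors to cyclic AMP, read 12.76, 12.76, 12.89 and 12.70 against 13.67, 13.62 and 13.72 (0.90, adjusted p = 2.1e-04). In both genes every 8-week array lay above every 4-week array.

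The other parts of the transduction chain followed, with Gng13, a G protein gamma subunit, at 0.69, the cyclic nucleotide-gated channel subunits Cnga2 at 0.58 and Cnga4 at 0.46, the chloride channel Ano2 at 0.42, the ciliary Stoml3 at 0.35 and the glutamate transporter Slc17a6 at 0.71. None of the 16 reached 2-fold, and the differences given here, of 0.35 to 0.94, were of the same order as the 0.572 to 0.888 seen for the spike-in RNAs. Adcy3, the olfactory adenylyl cyclase, read 9.12, 8.44, 8.43 and 8.37 against 8.85, 9.21 and 8.59 (0.29, adjusted p = 0.39), and the receptor transport protein Rtp2 differed by 0.13 (adjusted p = 0.15). Immature neurons and their progenitors had 4 of 13 tested genes higher and 2 lower, with a median of 0.05. Over all genes 21.3% were higher and 11.1% lower.

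Genes of the sustentacular support cells were higher too. Of 12 tested sustentacular genes 11 were higher and 0 lower, 7 by at least 2-fold, with a median of 1.07, where 21.3% of all genes were higher and 5.37% by at least 2-fold. Sec14l3, a lipid-binding protein, read 12.71, 12.76, 12.81 and 12.68 against 14.32, 14.18 and 14.38 (1.55, SE 0.07, adjusted p = 3.7e-05). Cyp2g1, a cytochrome P450 of the olfactory mucosa, read 13.86, 13.72, 13.96 and 13.79 against 14.99, 15.07 and 15.14 (1.23, SE 0.08, adjusted p = 1.2e-04). Cbr2 (1.37), Cyp2a4 (1.35, with a near-identical copy in Cyp2a5) and the glucuronosyltransferase Ugt2a1 (1.05) were higher too, without overlap between the sets. Ermn, another marker of these cells, read 10.90, 10.67, 10.18 and 10.50 against 10.82, 10.34 and 10.51 (-0.01, adjusted p = 0.98), so the sets overlapped and 1 defining marker did not move with the rest.

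Xenobiotic metabolism, the detoxifying work of the same mucosa, had 20 of 29 tested genes higher and 1 lower, with a median of 0.645. Por, the reductase that feeds electrons to all microsomal cytochromes P450, read 12.06, 12.07, 11.97 and 12.22 against 13.17, 13.27 and 13.27 (1.16, SE 0.08, adjusted p = 1.3e-04). The glutathione transferase Gstm1 (0.93), Cyp2f2 (0.92) and the epoxide hydrolase Ephx1 (0.76) were higher, and Cyp2b19 (-0.47) was lower. This list shares genes with the sustentacular list and is not separate from it. Of 8 tested targets of the aryl hydrocarbon receptor, which senses combustion products, 2 were higher, a share near the 21.3% of all genes, and 0 lower. Those higher were Cyp1a1, at 4.96, 6.10, 5.36 and 5.76 against 7.62, 7.53 and 7.81 (2.11, adjusted p = 0.0017), and Cyp1a2 (0.72). The genes of motile cilia, the beating cilia of respiratory epithelium, had 10 of 18 tested higher and 1 lower, with a median of 0.51. Among them Rsph1, of the ciliary radial spoke, read 9.72, 9.76, 9.73 and 9.77 against 10.53, 10.61 and 10.57 (0.82, adjusted p = 1.2e-04), and Dynlrb2 (0.71), the dynein Dnah5 (0.67) and Tekt1 (0.52) were higher. Tppp3 (-0.31) was lower, and Foxj1, the master regulator of motile cilia, differed by 0.15 and did not pass (adjusted p = 0.48).

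Olfactory receptors, of which each neuron expresses 1, were mostly too dim to test. Of 1065 receptor genes on the array 265 were tested. Of these, 99 were higher, where 21.3% of all genes were, and 1 lower, with a median of 0.41. The median was 0.142 with normexp, 0.131 with a floor of 50 and 0.644 with the processed signal. As 25 of the tested receptors were above background on 8-week arrays only, the count reflects in part which genes could be tested. Among the 31 receptors above background on all 7 arrays, 11 (35.5%) were higher and 0 lower, with a median of 0.24. Of all genes above background on all 7 arrays, 20.3% were higher. Olfr536 read 9.09, 9.05, 9.08 and 9.14 against 9.76, 9.63 and 9.81 (0.64, adjusted p = 7e-04), a step like that of Omp and without overlap. Olfr122 (3.35), Olfr901 (2.67) and Olfr59 (0.94) were higher as well, the last from 3 of the 4-week arrays since its spot on the fourth was flagged.

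Vomeronasal receptors, which detect pheromones, had 30 of 252 tested, 16 higher and 4 lower, where 21.3% of all genes were higher and 11.1% lower. Their median was 1.12, but 0.322 with normexp and 0.334 with a floor of 50. Of those tested, 6 were above background at 8 weeks only and 3 at 4 weeks only, so some were tested only through the set in which they were bright. Only 6 were above background on all 7 arrays, of which 4 were higher and 1 lower, against 20.3% and 13.9% of all such genes. Vmn1r87 read 8.59, 8.45, 8.00 and 8.09 against 11.29, 11.38 and 11.22 (3.02, adjusted p = 6.1e-05), and Vmn1r70 was higher by 1.14. The genes of vomeronasal neurons themselves had 2 of 5 tested higher and 1, the endoplasmic reticulum chaperone Calr4 (-1.41), lower. These neuronal genes thus went both ways.

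The circadian clock genes separated the sets along both arms of the clock. Promoters are shown for 3 genes of the 2 arms because letters of the motifs searched can be read in them. These are Per1 and Tef of the arm that was higher, and Nfil3 of the arm that was lower. The sequences are the 250 bases before an annotated start site in RefSeq on GRCm38.p6, written 5′ to 3′ on the strand of the gene, with motif letters in capitals. The motifs searched on both strands were the E-box CACGTG, bound by Bmal1 and Clock, and the D-box TTATGTAA, bound by Dbp, Tef, Hlf and Nfil3. AGGTCA, which is part of the site of the Rev-erb receptors and reads TGACCT on the other strand, was searched as well. No bases beside AGGTCA were required, so a match to it is not taken as a Rev-erb site.
Per1, chr11:69098699-69098948, + strand: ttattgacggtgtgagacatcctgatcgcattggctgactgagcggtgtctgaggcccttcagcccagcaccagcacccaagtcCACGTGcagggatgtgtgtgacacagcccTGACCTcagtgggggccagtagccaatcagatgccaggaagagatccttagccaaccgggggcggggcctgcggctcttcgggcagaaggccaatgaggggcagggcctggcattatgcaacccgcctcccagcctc
Tef, chr15:81802423-81802672, + strand: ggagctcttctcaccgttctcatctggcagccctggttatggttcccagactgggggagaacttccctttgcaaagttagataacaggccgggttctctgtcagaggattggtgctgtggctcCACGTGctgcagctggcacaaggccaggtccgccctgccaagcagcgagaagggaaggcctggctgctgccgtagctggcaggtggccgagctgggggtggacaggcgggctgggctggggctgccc
Tef, chr15:81811164-81811413, + strand: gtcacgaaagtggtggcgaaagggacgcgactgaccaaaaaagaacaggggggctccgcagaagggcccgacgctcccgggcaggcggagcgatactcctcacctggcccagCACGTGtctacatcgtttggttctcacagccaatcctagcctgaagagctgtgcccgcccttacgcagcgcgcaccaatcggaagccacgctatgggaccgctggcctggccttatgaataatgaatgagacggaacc
Nfil3, chr13:52981040-52981289, - strand: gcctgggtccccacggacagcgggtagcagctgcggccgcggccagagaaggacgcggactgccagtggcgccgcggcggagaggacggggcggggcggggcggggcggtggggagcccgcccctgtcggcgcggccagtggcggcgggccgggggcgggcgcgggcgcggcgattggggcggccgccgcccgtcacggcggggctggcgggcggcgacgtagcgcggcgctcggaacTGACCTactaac
Per1 held an E-box that starts 166 bases before the start site and an AGGTCA match 137 bases before it, both start sites of Tef shown held an E-box, at 127 and 138 bases, and Nfil3 held an AGGTCA match 12 bases before its start. A second annotated start of Per1, at chr11:69099902-69100151 on the + strand and not printed, held none of the motifs. Of 32851 such promoters of 27025 genes, 6.02% held the E-box, 0.819% the D-box and 14% AGGTCA. Of the 12 tested genes of the Per and Rev-erb arm 9 had a promoter in the table, of which 2 held the E-box, 1 the D-box and 2 AGGTCA. In the Bmal1 arm 0 of 5 held the E-box, 0 the D-box and 2 AGGTCA. The counts of the arms are of genes with a match in any of their promoters, 11 promoters for the 9 genes and 8 for the 5. They are therefore not on the scale of the shares above, which are per promoter. The promoters of Dbp and Nr1d1 held none of the 3 motifs in this window, and a match or its absence describes the letters only.

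In the Per and Rev-erb arm with its output factors, 10 of 12 tested genes were higher at 8 weeks, against 21.3% of all genes. None was lower, and the median was 0.65. Dbp, an output transcription factor of the clock, read 8.50, 8.22, 8.33 and 8.23 at 4 weeks and 11.54, 11.57 and 11.49 at 8 weeks (3.21, SE 0.085, adjusted p = 4.1e-06), which is 9.27-fold. The related factors Hlf, at 7.51, 7.58, 7.56 and 7.78 against 9.46, 9.62 and 9.54 (1.93, adjusted p = 3.3e-05), and Tef, at 10.80, 11.03, 10.90 and 11.04 against 12.24, 12.28 and 12.43 (1.37, adjusted p = 1.2e-04), were higher too. All 3 of these PAR bZIP factors were higher on every 8-week array than on any 4-week array.

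The Rev-erb gene Nr1d1 read 5.93, 6.90, 6.88 and 6.40 against 8.23, 8.59 and 8.32 (1.85, SE 0.26, adjusted p = 0.0024), and its relative Nr1d2 was higher by 1.72. Per1, a repressor of the clock whose E-box is printed above, read 8.67, 8.59, 8.70 and 8.59 against 9.34, 9.36 and 9.44 (0.74, adjusted p = 3.1e-04). Cry2 (0.56) and Bhlhe40 (0.52), further repressors, were higher by less.

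In the Bmal1 arm, 3 of 5 tested genes were lower, against 11.1% of all genes, and 0 higher, with a median of -0.43 (-0.248 with normexp). Arntl, which encodes Bmal1, read 8.49, 8.42, 8.39 and 8.51 against 6.83, 7.04 and 7.18 (-1.44, SE 0.09, adjusted p = 1.2e-04). Nfil3, which competes with Dbp for the D-box, read 10.66, 10.68, 10.84 and 11.21 against 9.47, 9.42 and 9.60 (-1.35, adjusted p = 9e-04). Clock (-0.43), the partner of Bmal1, was lower as well, and in all 3 genes the sets did not overlap. The hour of tissue collection is not given in the sources used here.

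**Figure D4:**
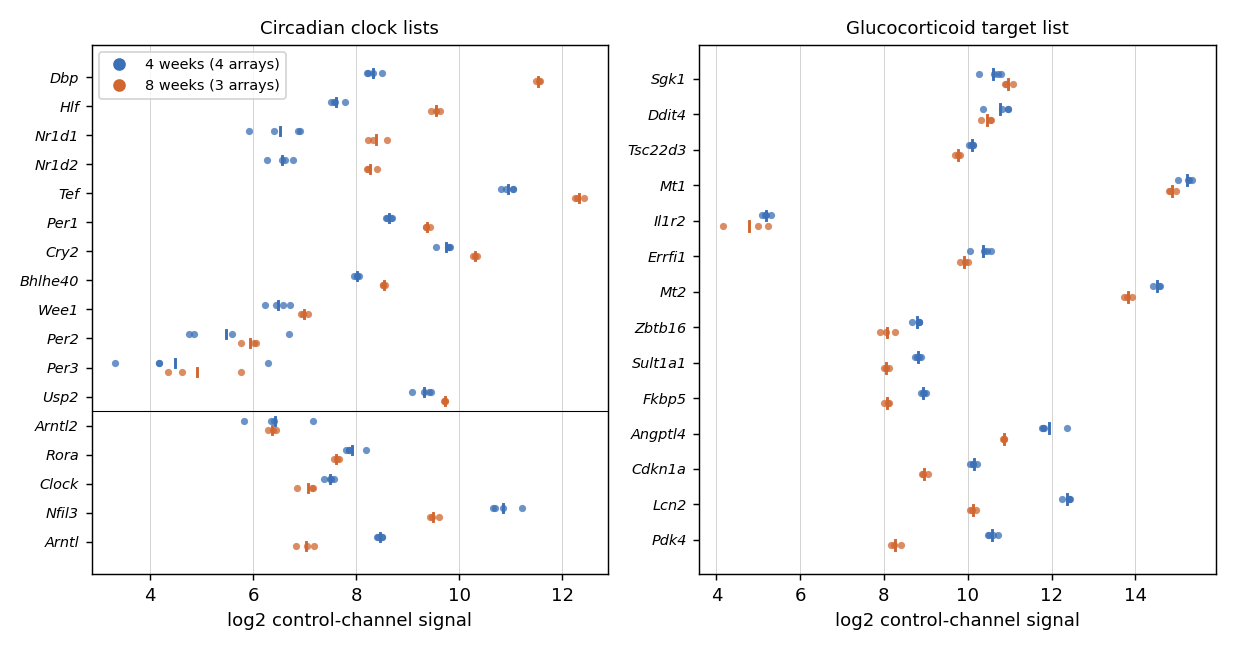
Log2 control-channel signal of the tested clock genes (left, with the Per and Rev-erb arm above the line and the Bmal1 arm under it) and of the 14 glucocorticoid targets (right), each dot 1 array and each bar a mean, blue for the 4-week and orange for the 8-week controls. Dbp, Hlf, Nr1d1, Nr1d2 and Tef lie higher at 8 weeks and Arntl, Nfil3, Pdk4 and Lcn2 lower, each without overlap.

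Targets of glucocorticoids and genes of inflammation were more often lower than higher in the 8-week controls. Of 14 tested glucocorticoid targets 11 were lower, against 11.1% of all genes, and 0 higher, with a median of -0.71. Pdk4, a kinase that restrains glucose oxidation, read 10.59, 10.49, 10.73 and 10.52 against 8.24, 8.16 and 8.41 (-2.31, SE 0.09, adjusted p = 2.1e-05). Lcn2, an iron-scavenging lipocalin, read 12.41, 12.42, 12.25 and 12.44 and lay between 10.06 and 10.18 on all 3 of the 8-week arrays (-2.26, adjusted p = 8.5e-06). The cell-cycle inhibitor Cdkn1a (-1.18), Angptl4 (-1.08), the receptor cochaperone Fkbp5 (-0.87), Zbtb16 (-0.72), the metallothionein Mt2 (-0.70) and Tsc22d3 (-0.33) were lower too, and the kinase Sgk1 differed by 0.35 without passing (adjusted p = 0.097). Several of these genes answer to other signals as well, Lcn2 among them.

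Of 9 tested inflammation genes 6 were lower, against 11.1% of all genes, and 0 higher, with a median of -0.80 (-0.456 with normexp). As 1 of the 9 was above background at 4 weeks only, it was tested only through the set in which it was bright. Only 5 were above background on all 7 arrays, of which 4 were lower and 0 higher, against 13.9% of all such genes lower. Il6, the cytokine interleukin 6, read 9.42, 9.31, 9.51 and 9.47 at 4 weeks and was at or next to the floor at 8 weeks, with 3.43, 3.32 and 3.32 (at least 48.1-fold lower, adjusted p = 1.9e-07). The monocyte attractant Ccl2, at 5.99, 6.18, 6.27 and 6.58 against 4.65, 4.94 and 4.65 (-1.50, adjusted p = 7.4e-04), and Il1b, at 7.02, 7.28, 7.07 and 7.28 against 5.72, 5.81 and 5.75 (-1.40, adjusted p = 1.1e-04), were lower as well, and neither overlapped. Haptoglobin, Hp (-1.08), the inhibitor Nfkbia (-0.80) and the acute-phase protein Saa3 (-0.69) were lower, and Tnf (-0.35, adjusted p = 0.26) did not pass.

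The neutrophil attractant Cxcl1 read 8.44, 8.26, 8.27 and 8.32 against 5.69, 5.78 and 5.76 (-2.58, adjusted p = 3.9e-06), and Cxcl5 (-1.55) and the receptor Cxcr2 (-1.94) were lower with it. The neutrophil list as a whole had 5 of 15 tested genes higher, among them the granule protease Elane (1.18) and the receptor Csf3r (0.55), and 7 lower. Cd14, the endotoxin coreceptor of macrophages, read 10.84, 10.76, 10.72 and 10.84 against 8.33, 8.40 and 8.31 (-2.44, adjusted p = 3.3e-06), whereas the complement gene C1qb, also of macrophages, was higher by 1.91. The marker genes of these white cells thus did not move together. Of 18 tested immediate early genes, which respond within minutes to a stimulus, 9 were lower and 1 higher, with a median of -0.44 (-0.289 with normexp). Socs3 (-1.80), Atf3 (-1.79), Ier3 (-1.04), Fos (-0.999) and Maff (-0.93) were lower, and Egr1 differed by 0.21 and did not pass (adjusted p = 0.28). Interferon-stimulated genes had 5 of 23 tested higher, such as Oasl1 (1.55) and Rsad2 (0.86), which is near the 21.3% of all genes, and 5 lower, such as Gbp2 (-1.39). Other stress lists went both ways: heat shock and cold response genes had 1 of 12 tested higher and 4 lower, the unfolded protein response 3 of 13 higher and 6 lower, and Nrf2 targets 4 of 14 higher and 5 lower, with medians of -0.16, -0.18 and -0.015. Of all genes 21.3% were higher and 11.1% lower. The unfolded protein response and Nrf2 shares higher were near that of all genes.

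Genes of tissues that adjoin the nasal lining also differed. Enamel and dentin proteins, made by the cells of growing teeth, had 7 of 9 tested genes higher, against 21.3% of all genes, and 1 lower. The median log2 signal of the list was 8.49 to 8.91 on the 4-week and 10.03 to 10.08 on the 8-week arrays. Enam, which encodes enamelin, read 7.99, 8.01, 7.95 and 8.15 against 10.08, 10.07 and 10.03 (2.04, SE 0.07, adjusted p = 1.2e-05). Amelx, which encodes amelogenin, was bright in both sets, with 13.68, 13.71, 13.52 and 13.74 against 14.95, 15.09 and 14.83 (1.29, adjusted p = 1.6e-04). The tooth genes Amtn (1.99), Dspp (1.78), Ambn (1.48) and Odam (1.42) were higher likewise, Slc24a4 (-0.43), a calcium exchanger of enamel cells, was lower, and Dmp1, shared by dentin and bone, differed by 0.22 without passing. Bone genes went no single way, with 4 of 16 tested higher, such as osteocalcin, Bglap (0.40), and 3 lower, such as the collagenase Mmp13 (-1.30). The share of bone genes higher was near the 21.3% of all genes, of which 11.1% were lower.

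Erythroid genes had 6 of 9 tested higher, against 21.3% of all genes, and 0 lower, with a median difference of 1.14 (0.72 with normexp). The median signal of the list was 9.09 to 9.53 on the 4-week and 9.73 to 10.29 on the 8-week arrays. Hbb-bt, an adult beta globin, read 11.78, 11.58, 11.68 and 11.57 against 13.22, 13.20 and 13.26 (1.57, SE 0.07, adjusted p = 3.9e-05). Hbb-b2 (1.46), Hba-a1 (1.35, from 3 of the 4-week arrays), the red cell anion exchanger Slc4a1 (1.14) and the haem synthesis enzyme Alas2 (1.08) were higher as well, although the paired globin copies share probe targets. Fast skeletal muscle genes had 14 of 18 tested lower, against 11.1% of all genes, and 1, Ampd1 (0.34), higher. The median signal of this list was 13.25 to 13.41 against 12.57 to 12.78. Myh1, a fast myosin heavy chain, read 13.35, 13.31, 13.45 and 13.25 against 12.24, 12.28 and 12.32 (-1.06, adjusted p = 1.2e-04), the calcium buffer Pvalb was lower by a similar step (-0.98) and the actin Acta1 by less (-0.40). How much of any of these differences came from more blood, more tooth or less muscle in the pieces was not tested.

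Brain genes, which the olfactory bulb behind the cribriform plate also expresses, had 7 of 12 tested higher, against 21.3% of all genes, and 0 lower. The list median was 6.69 to 7.65 against 8.01 to 8.23. Th, the dopamine synthesis enzyme, read 8.52, 8.32, 7.92 and 8.47 against 9.87, 9.89 and 9.89 (1.58, adjusted p = 5.2e-04), and Gad1, which makes GABA, read 6.72, 6.94, 6.72 and 7.19 against 8.55, 8.34 and 8.28 (1.50, adjusted p = 4.9e-04). The bulb projection neuron factor Eomes (1.03) and the water channel Aqp4 (0.86) were higher too. Peripheral glia, the cells that sheathe nerves, had 4 of 14 tested genes higher, not far from the 21.3% of all genes, and 1 lower. Their median was 0.30 (0.194 with normexp). Among the genes with the largest lower differences were 3 known from nerve cells, for which no list was drawn up. Nefl, a neurofilament subunit, read 9.45, 9.39, 9.51 and 9.63 against 5.18, 5.52 and 5.36 (-4.14, SE 0.10, adjusted p = 3e-06), Nefh was lower by 3.71, and Calca, which encodes the neuropeptide CGRP, was above background on 4-week arrays only (at least 32.1-fold lower, adjusted p = 1.2e-05). In all 3 of these genes the 4-week values lay far above all 8-week values.

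Squamous and cornified genes had 11 of 23 tested lower and 4 higher, where 11.1% of all genes were lower and 21.3% higher. The list median was -0.43 (-0.26 with normexp). Sprr1a, a precursor of the cornified envelope, read 12.23, 12.15, 11.66 and 12.16 against 9.86, 9.95 and 9.82 (-2.17, adjusted p = 1.5e-04), and Ivl (-2.05), Sprr1b (-1.14), Krt13 (-0.60) and Krt14 (-0.36) were lower, while Krt15 (1.07) was higher. Among all 36 tested keratins 12 were higher and 11 lower, beside the same shares of all genes. The hair follicle keratins Krt25 (-3.30), Krt71 (-2.43) and Krt35 (-1.69) were the lower end, and Krt80 (2.38) and Krt19 (1.03) were higher. Krt25 read 7.44, 7.26, 7.32 and 7.28 against 4.02, 4.38 and 3.68.

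Awat1, a wax ester synthase of sebaceous glands, was above background on 4-week arrays only and at least 11.4-fold lower at 8 weeks. Cell cycle genes had 11 of 26 tested lower and 2 higher, where 11.1% of all genes were lower and 21.3% higher. The list median was -0.34 (-0.177 with normexp). Cdc20, which starts anaphase, read 9.29, 9.35, 9.13 and 9.38 against 8.04, 8.14 and 8.08 (-1.20, adjusted p = 1.3e-04), and Birc5 (-0.88) and the proliferation marker Mki67 (-0.65) were lower with it. Lipid and sterol synthesis had 9 of 17 lower and 1 higher (median -0.25), fibroblast matrix genes 8 of 20 lower and 0 higher (median -0.27), and adipose genes 4 of 14 lower, namely Plin4 (-1.73), Cidea (-1.32), Lpl (-1.12) and Fabp4 (-0.42), and 1, leptin or Lep (above background at 8 weeks only, at least 2.39-fold), higher.

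Genes that every cell uses differed little. Of 13 tested reference genes 1 was higher and 1 lower, with a median of -0.06, of 83 tested cytosolic ribosomal protein genes 7 were higher and 2 lower (median 0.03), and of 78 genes of the mitochondrial respiratory chain 3 were higher and 10 lower (median -0.09). In each of these lists the share higher lay below the 21.3% of all genes. The share lower lay below the 11.1% of all genes for reference and ribosomal protein genes. For the respiratory chain it was 12.8%, above the 11.1%. All 78 of its tested genes were above background on all 7 arrays, and 13.9% of all such genes were lower. The salivary and lacrimal gland list lay above all genes in both directions. The support cell list and the Per and Rev-erb arm did so in the share higher, and the Bmal1 arm in the share lower.

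The DEP channel of the same 7 arrays gave a second view of the step between the slides, from RNA of exposed mice. The 2 channels share arrays, so their steps are set side by side here for the named genes only. Of the 181 named genes called in the control channel, 164 were above background on at least 1 array in both sets of both channels, and steps are compared for these only. The DEP step differed from the control step for 133 of them at an adjusted p of at most 0.05 (limma on the difference within each array). For 61 of these it ran in the opposite direction, for 40 it was smaller in the same direction and for 32 it was larger. The genes were chosen for a called control step, which also enters the difference tested. That choice favours unlike DEP steps, smaller or opposite ones above all. The counts therefore describe these named genes only, and no share over all genes is given beside them. The step in the Cy5 channel includes any effect of the length of exposure and of the dye. The 10 spike-in RNAs also stepped apart, with 8-week minus 4-week steps of 0.572 to 0.888 in the control channel and of -1.129 to -0.464 in the DEP channel, without overlap in either, so that opposite steps of this size occurred in RNA that did not come from the mice.

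Dbp differed by 3.21 in the control channel and by 0.01 in the DEP channel (adjusted p = 1e-05 for the difference of steps), and Omp by 0.94 and -0.61 (adjusted p = 1.6e-04), the latter in the directions of the spike-ins and near them in size. Amy1 was higher by 6.45 in the controls and differed by 0.86 in DEP (adjusted p = 1.3e-05). Bpifa2 differed by 2.83 and -0.47 (adjusted p = 5.5e-05). Lipf and Scgb1b2 had larger steps down in the DEP channel, of -8.54 (above background on 2 of the 3 DEP channels at 8 weeks) and -9.03, beside -5.92 and -5.63 in the control channel. Gm1553, Mucl2 and Il6 were above background in the DEP channel on all 4-week and no 8-week arrays, so that their steps are not compared. The enamel genes Ambn and Enam were higher in both, with DEP steps of 5.53 and 5.28 beside control steps of 1.48 and 2.04.

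For 31 of the 164 genes the test of unlike steps did not pass. These included Vmn1r87 (3.02 in control and 3.18 in DEP, adjusted p = 0.49), Olfr122 (3.35 and 3.61, adjusted p = 0.27), Gml2 (3.30 and 3.23, adjusted p = 0.84), Sprr1a (-2.17 and -2.16, adjusted p = 0.92), Lcn2 (-2.26 and -2.16, adjusted p = 0.50) and Th (1.58 and 1.50, adjusted p = 0.58). Over lists, the medians were 0.53 in control and -0.38 in DEP for mature olfactory neurons, 1.07 and 0.21 for support cells, 0.65 and -0.08 for the Per and Rev-erb arm, -0.43 and 0.585 for the Bmal1 arm, -0.71 and -0.66 for glucocorticoid targets, and -0.49 and -1.27 for fast muscle.

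**Figure D5:**
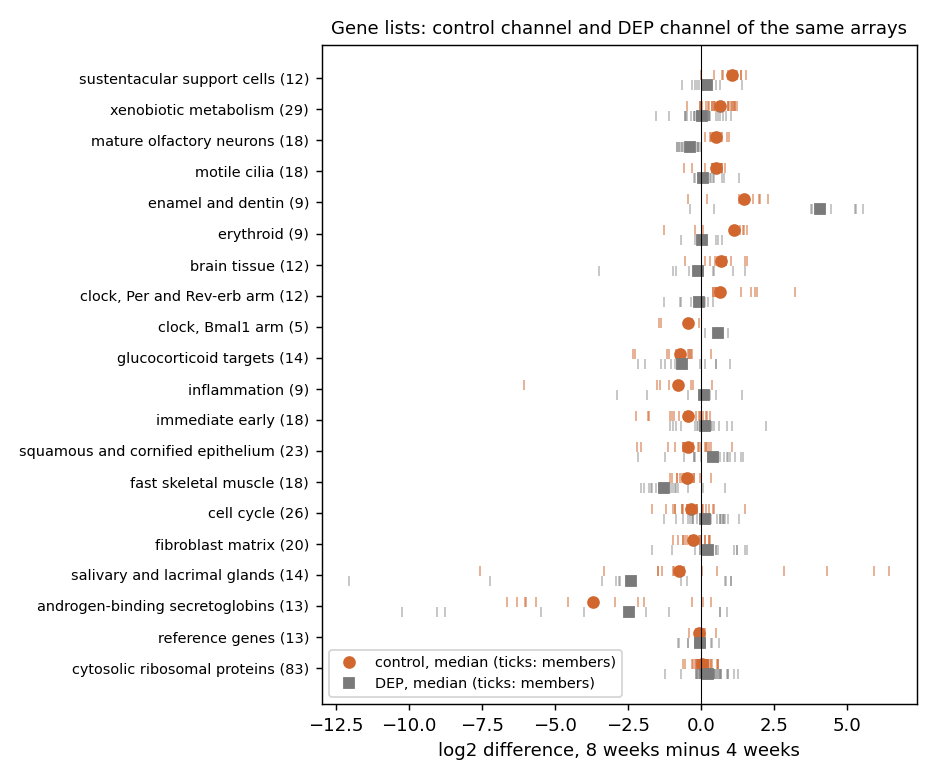
Median difference between 8-week and 4-week arrays (log2, x axis) of the tested members of each gene list, in the control channel and in the DEP channel of the same 7 arrays. Glucocorticoid targets and the androgen-binding secretoglobins lie below 0 in both channels, while the olfactory neuron list lies above 0 in the control channel and below 0 in the DEP channel.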

How the data were processed

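Total RNA of nasal tissue was labelled with the Low Input Quick Amp kit, DEP RNA with Cy5 and control RNA with Cy3, without a dye swap. The authors deposited the scanner output of each array, written by Agilent Feature Extraction 10.10.1.1. Its columns are intensity values of spots and local backgrounds, not normalized, beside processed intensity values used here in 1 alternative only. The numbers of arrays and the brightness over background limit the precision.

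From the deposited files the median Cy3 intensity minus the median local background was quantile-normalized over the 7 arrays, floored at 10 and log2-transformed. Control spots and those flagged as non-uniform were dropped, and probes spotted more than once were averaged. Probes well above background on at least 3 of 7 control channels were tested (22403 probes) with limma 3.58.1 in R 4.3.3, 4 arrays against 3, with Benjamini-Hochberg adjustment over all probes tested. Of 39429 probes 28330 were named, with current RefSeq symbols, as 21367 genes. The DEP channel was processed likewise, and the difference between channels within each array was tested with limma. The fit was tested on simulated data with known differences.

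Named are the 25 genes with the highest mean signal, the 15 highest and 15 lowest differences that passed at 2-fold without overlap, the 5 largest bounds in each direction, and members of gene lists. Unnamed transcripts were counted only. The members and lists were chosen with earlier results of these data known, and 2 listed genes are not reported here. Alternatives covered background, normalization, filters, the test, pairing and single arrays left out.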

Additional observations from a re-analysis of the deposited data

Results flagged for a closer look

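In 20 named genes 1 of the 4-week controls lay farther from the nearest other, relative to the range of the 4, than Dixon's critical value allows. Chance puts about 1 in 20 groups past this limit, and 200 genes were looked at. Replicate 3 was the array apart for C1qb (7.04), Calca (8.68), Cbr2 (15.37), Gm4736 (5.11), Lcn2 (12.25), Lipf (12.88), Mmp13 (10.16), Nfkbia (11.75), Slc24a4 (8.98), Sprr1a (11.66) and Zbtb16 (8.66). Replicate 2 was apart for Angptl4 (12.37), BC048679 (16.20) and Cyp2a4 (15.29). Replicate 1 was apart for Adcy3 (9.12), Bpifb1 (12.89), Cry2 (9.55) and Lcn11 (17.00), and replicate 4 for Fos (7.51) and Smr3a (7.41).

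Of the 31 genes with the largest differences or bounds, 18 were above background on at least 1 array in both sets of both channels. For 16 of these the step from 4 to 8 weeks in the DEP channel differed from the step in the control channel by the limma test within arrays. As the genes were chosen for their large control steps, unlike DEP steps were favoured by the choice. The difference, DEP step minus control step in log2 units, was negative for the gland genes higher in the 8-week controls, with Amy1 at -5.593, Smr3a at -4.89, Cst10 at -4.063, Chia1 at -3.909 and Prb1 at -3.282. It was also negative for Dbp (-3.204) and the potassium channels Kcnj1 (-2.538) and Kcnj5 (-2.154), and positive for Fbxw13 (0.633). Cst10, Chia1, Prb1 and Kcnj1 were above background on 1 of the 4-week control channels, which limits how exactly their steps are known. The spike-in RNAs had steps of 0.572 to 0.888 in the control channel and of -1.129 to -0.464 in the DEP channel.

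Among genes lower in the 8-week controls, the difference of steps was negative for Scgb1b2 (-3.405), Lipf (-2.618) and Nefh (-0.899), and positive for Scgb1b19 (3.837), Scgb1b7 (3.583), Scgb2b7 (3.462) and Scgb1b20 (1.155). Nefh was above background on 2 control and 1 DEP channel at 8 weeks, and Scgb1b19 and Scgb2b7 on 2 control channels.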

How the results depend on the processing

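The counts at adjusted p and 2-fold, 779 higher and 248 lower, depended on how dim signals were treated. They were 185 and 116 with normexp at an offset of 50 (184 and 116 at the unadjusted p), 335 and 155 without background subtraction (331 and 154), and 239 and 161 among genes above background on all 7 arrays (236 and 159). The share higher moved from 75.9% to 61.5% with normexp and to 59.8% with the all-array filter. Leaving out each array in turn gave 2172 to 3120 genes higher and 984 to 1812 lower at the adjusted p. Replicates of the same number did not deviate together (r of -0.042, 0.041 and 0.011), and a replicate block on replicates 1 to 3 gave 859 lower and 2204 higher, against 1336 and 3047 for the same 6 arrays without a block. The methods' t-test called 713 higher and 222 lower at its unadjusted threshold. Other count settings stayed within 1.5 times. Of 181 named genes called, 173 had a value in all 13 settings run for them, and 164 of these kept direction and call. The other 8 had no value in at least 1 setting, and 9 (Bpifa1, Bpifa6, Bpifb9b, Elk1, Exosc2, Kctd14, Zfp628, Slc24a4, Tppp3) lost the call in at least 1 setting. Normexp moved list medians by more than 1.5 times, toward 0, for inflammation (-0.456), immediate early (-0.289), cell cycle (-0.177), erythroid (0.72), squamous (-0.26), Bmal1 arm (-0.248), peripheral glia (0.194), olfactory receptor (0.142), vomeronasal receptor (0.322), T and NK cell (0.195), mast cell (0.111) and slow muscle genes (-0.147). Signs turned for Bpifb9b (-0.032, 75th percentile scaling), for Wfdc18 (-0.177 with that scaling and -0.049 with the processed signal), and in genes near 0 when 1 array was left out (Ermn -0.14 to 0.104, Tpt1 -0.045 to 0.009). The cartilage list median of 0.119 turned to -0.013 with a floor of 50, chosen after seeing the data, and ranged from -0.069 to 0.22 with 1 array left out. The causes were not tested. Signal over background limits the dimmest genes.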

Other observations

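Of 6787 genes bright on average in the control channel, 40 had 1 of the 4-week arrays more than 2 log2 units from the nearest other array, against 5 for the 8-week arrays. The hair follicle keratins that were lower in the 8-week controls stepped the other way in the DEP channel, by 1.80 for Krt25 (adjusted p = 2e-05 for the difference of steps, limma), 1.42 for Krt71 (adjusted p = 1.1e-04) and 1.95 for Krt35 (adjusted p = 2e-04). Krt25 and Krt71 were above background on 1 and 2 of the 8-week control channels.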
